A study of Rattus norvegicus with 6 samples.

Results

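The genes described here serve the synthesis, transport and breakdown of N-acetylaspartate (NAA) and of the aspartate it is built from. The 8 genes *Nat8l*, *Slc25a12*, *Slc25a13*, *Rimkla*, *Rimklb*, *Slc13a3*, *Folh1* and *Aspa* were taken by their symbols from the 30560 genes in the files. They were chosen for their place in this pathway, with earlier results of these data known. They were counted as unique molecular identifiers (UMIs, 1 per captured RNA molecule) in nuclei of rat brains isolated 48 h after a sham operation or after the right middle cerebral artery had been blocked for good with an intraluminal filament (middle cerebral artery occlusion, MCAO). The rats were wild-type male Wistar rats, 12 weeks old, and no group carried a transgene. The nuclei of 4 Sham rats gave the libraries Sham L and Sham R (left and right hemisphere). Those of 3 rats with moderate infarcts gave mMCAO contra and mMCAO ipsi, and those of 4 rats with severe infarcts gave sMCAO contra and sMCAO ipsi. Contra is the left hemisphere, opposite the infarct, and ipsi the right hemisphere, on its side. They formed the groups Sham, MCAO contra and MCAO ipsi, of 2 libraries each. Every library pooled the tissue of all its rats, both Sham libraries came from the same animals, and severity differed within the MCAO groups, so p-values measured the spread between libraries and not between animals. In what follows, paired values stand in the order Sham L and Sham R for Sham, and mMCAO and sMCAO for the contra and ipsi groups.

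NAA is among the most abundant free metabolites of the brain. Neurons make it in mitochondria from aspartate and acetyl-CoA by the N-acetyltransferase encoded by *Nat8l*, and join it to glutamate as N-acetylaspartylglutamate (NAAG) by the ligases encoded by *Rimkla* and *Rimklb*. Outside the cell, glutamate carboxypeptidase II, the product of *Folh1*, cuts NAAG back into NAA and glutamate, and the sodium-coupled carrier encoded by *Slc13a3* can take NAA into glia. Oligodendrocytes hold aspartoacylase, the product of *Aspa*, which splits NAA into aspartate and acetate that can be used for myelin lipids. Loss of this enzyme causes the leukodystrophy Canavan disease. *Slc25a12* (aralar) and *Slc25a13* (citrin) encode the mitochondrial carriers that move aspartate out of the matrix in exchange for glutamate, a step of the malate-aspartate shuttle.

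The promoters of *Aspa*, *Folh1* and *Slc25a13* are shown because the results in glia turn on these members. The RefSeq table of the GRCr8 assembly held a start-site window, 250 bases before to 50 bases after the start, for 7 of the 8 genes, *Nat8l* being the one without. Capitals mark a SOX-type motif, ACAATG or ACAAAG on either strand. All 3 genes lie on the minus strand, and the sequences are written 5′ to 3′ in the direction of transcription.
*Aspa* promoter, chr10:58438988-58439287: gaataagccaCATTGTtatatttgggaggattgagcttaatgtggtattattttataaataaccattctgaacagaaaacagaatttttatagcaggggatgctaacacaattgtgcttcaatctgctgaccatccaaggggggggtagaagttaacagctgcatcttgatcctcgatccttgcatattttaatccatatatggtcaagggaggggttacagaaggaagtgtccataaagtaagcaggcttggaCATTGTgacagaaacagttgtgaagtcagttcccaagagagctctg
*Folh1* promoter, chr1:149913986-149914285: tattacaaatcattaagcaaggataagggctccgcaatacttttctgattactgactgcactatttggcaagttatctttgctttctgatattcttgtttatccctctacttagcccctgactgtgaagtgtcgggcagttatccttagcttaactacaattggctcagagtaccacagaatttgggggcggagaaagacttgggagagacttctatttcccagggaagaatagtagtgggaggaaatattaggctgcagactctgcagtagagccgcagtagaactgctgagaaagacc
*Slc25a13* promoter, chr4:35328311-35328610: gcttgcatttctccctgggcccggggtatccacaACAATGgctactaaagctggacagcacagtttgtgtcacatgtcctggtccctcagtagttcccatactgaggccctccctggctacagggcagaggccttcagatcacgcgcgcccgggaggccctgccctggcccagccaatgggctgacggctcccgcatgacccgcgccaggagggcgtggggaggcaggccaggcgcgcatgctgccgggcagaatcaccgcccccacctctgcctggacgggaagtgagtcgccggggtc
In the *Aspa* window this motif stood at -240 to -235 and at 4 to 9 relative to the start, and in the *Slc25a13* window at -216 to -211. It was absent from the *Folh1* window and present in 29.1% of the 33469 promoter windows in the table. Windows of all 7 genes were also searched on both strands for a STAT motif (TTCNNNGAA), an AP-1 motif (TGANTCA) and a heat shock element (GAANNTTC), which 8.87%, 7.33% and 8.59% of all windows held. None of the 7 windows held these letters. A match is a run of letters and not a shown binding site. The gene body of *Aspa* overlaps those of *Trpv3* and *Spata22* in this annotation, and that of *Slc13a3* overlaps *Elmo2*.

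The 6 libraries held 33012945 to 52513380 UMIs in 8665 to 14491 nuclei each. Nuclei were placed in classes by marker genes that include no member, and the classes carry the suffix -like for this reason. Own markers made up 7 of the 10 leading genes by fold of the oligodendrocyte-like class (for example *Mobp* and *Mog*), 5 of 10 in the precursor (OPC-like), 4 of 10 in the astrocyte-like and 5 of 10 in the myeloid-like class. The vascular-like class had only 2, with the hemoglobin genes *Hba-a2* and *Hbb-b1* also among its leading genes, and the other GABAergic neuron-like class 1. Own markers set the gates, so their place among the leading genes is largely fixed by the gating and does not test class identity. The sMCAO ipsi library stood apart. Its oligodendrocyte-like nuclei held a median of 1121 UMIs against 658 to 758 in the other libraries, and pan-neuronal genes reached 330.03 CPM there against 929.6 to 1966 CPM. Levels are counts per 1000000 UMIs (CPM) summed over the nuclei of a class in a library. CPM values are used here to compare a gene between classes and libraries but not different genes with each other.

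*Aspa* was highest in oligodendrocyte-like nuclei, which is the cell type known for it. Its level there was 658 and 593 CPM in Sham, 585 and 521 CPM in MCAO contra, and 557 and 479 CPM in MCAO ipsi. Next came myeloid-like nuclei (mean of the 6 libraries 350 CPM, range 229 to 590.3) and newly formed oligodendrocyte-like nuclei (342 CPM, range 243 to 438), and the ranges of these neighbours overlapped. OPC-like (mean 42.8 CPM), vascular-like (36.6 CPM) and astrocyte-like nuclei (25.1 CPM) lay below all of them and overlapped each other. In the 3 neuronal classes *Aspa* stayed between 2.72 and 7.56 CPM.

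*Slc25a13* followed a similar order among the classes. In oligodendrocyte-like nuclei it reached 641 and 524 CPM in Sham, 669.6 and 612 CPM in MCAO contra, and 612 and 617 CPM in MCAO ipsi, above every value of the 8 other classes plotted. Myeloid-like nuclei held 196 to 445 CPM, newly formed oligodendrocyte-like nuclei 121 to 239 CPM and glutamatergic neuron-like nuclei 4.65 to 8.17 CPM. Over the 57 sums of a class in a library, the Pearson correlation of log2(CPM + 5) between *Aspa* and *Slc25a13* was 0.87, a description over sums that share libraries and cell types. *Slc25a12*, the other carrier of the same kind, differed little between classes: means ran from 90.1 CPM in vascular-like to 195 CPM in other GABAergic neuron-like nuclei, and each class overlapped the one above it.

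*Folh1* was highest in astrocyte-like nuclei, with 363 and 197 CPM in Sham, 295 and 272 CPM in MCAO contra, and 283 and 194 CPM in MCAO ipsi. No other tested class reached this range, the nearest being oligodendrocyte-like (72.9 to 109.9 CPM) and OPC-like nuclei (43.9 to 141 CPM), which overlapped each other. Myeloid-like nuclei, which were not tested, reached 198 CPM from 4 UMIs in Sham R and 3.42 to 36.4 CPM elsewhere. Vascular-like nuclei held 0 UMIs in all 6 libraries. Neurons stayed at or below 5.31 CPM. By mean over the 6 libraries, the RNAs of *Folh1* and *Aspa* were thus highest in different glial classes. The enzymes they encode were not measured.

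The genes for synthesis did not share one order. *Nat8l* was sparse everywhere, with means of 9.37 CPM in other GABAergic, 7.31 CPM in glutamatergic and 5.15 CPM in medium spiny neuron-like nuclei, and with 0 to 13 UMIs per library in oligodendrocyte-like nuclei. The astrocyte-like mean of 9.04 CPM rested on 0 to 5 UMIs per library. *Rimkla* was higher in other GABAergic (29.0 to 36.4 CPM) and glutamatergic (23.1 to 29.9 CPM) than in oligodendrocyte-like nuclei (4.52 to 11.7 CPM), with the sparse counts of myeloid-like nuclei between and above (10.8 to 49.5 CPM). *Rimklb* had its highest means in 3 glial classes whose ranges overlapped, astrocyte-like (73.3 to 182 CPM), OPC-like (84.3 to 119 CPM) and newly formed oligodendrocyte-like nuclei (40.3 to 141 CPM), and the class on top differed between libraries. The carrier gene *Slc13a3* was low, at 5.64 to 17.8 CPM in astrocyte-like and 6.40 to 15.9 CPM in oligodendrocyte-like nuclei, which overlapped each other, and at or below 2.04 CPM in the neuronal classes.

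**Figure D1:**
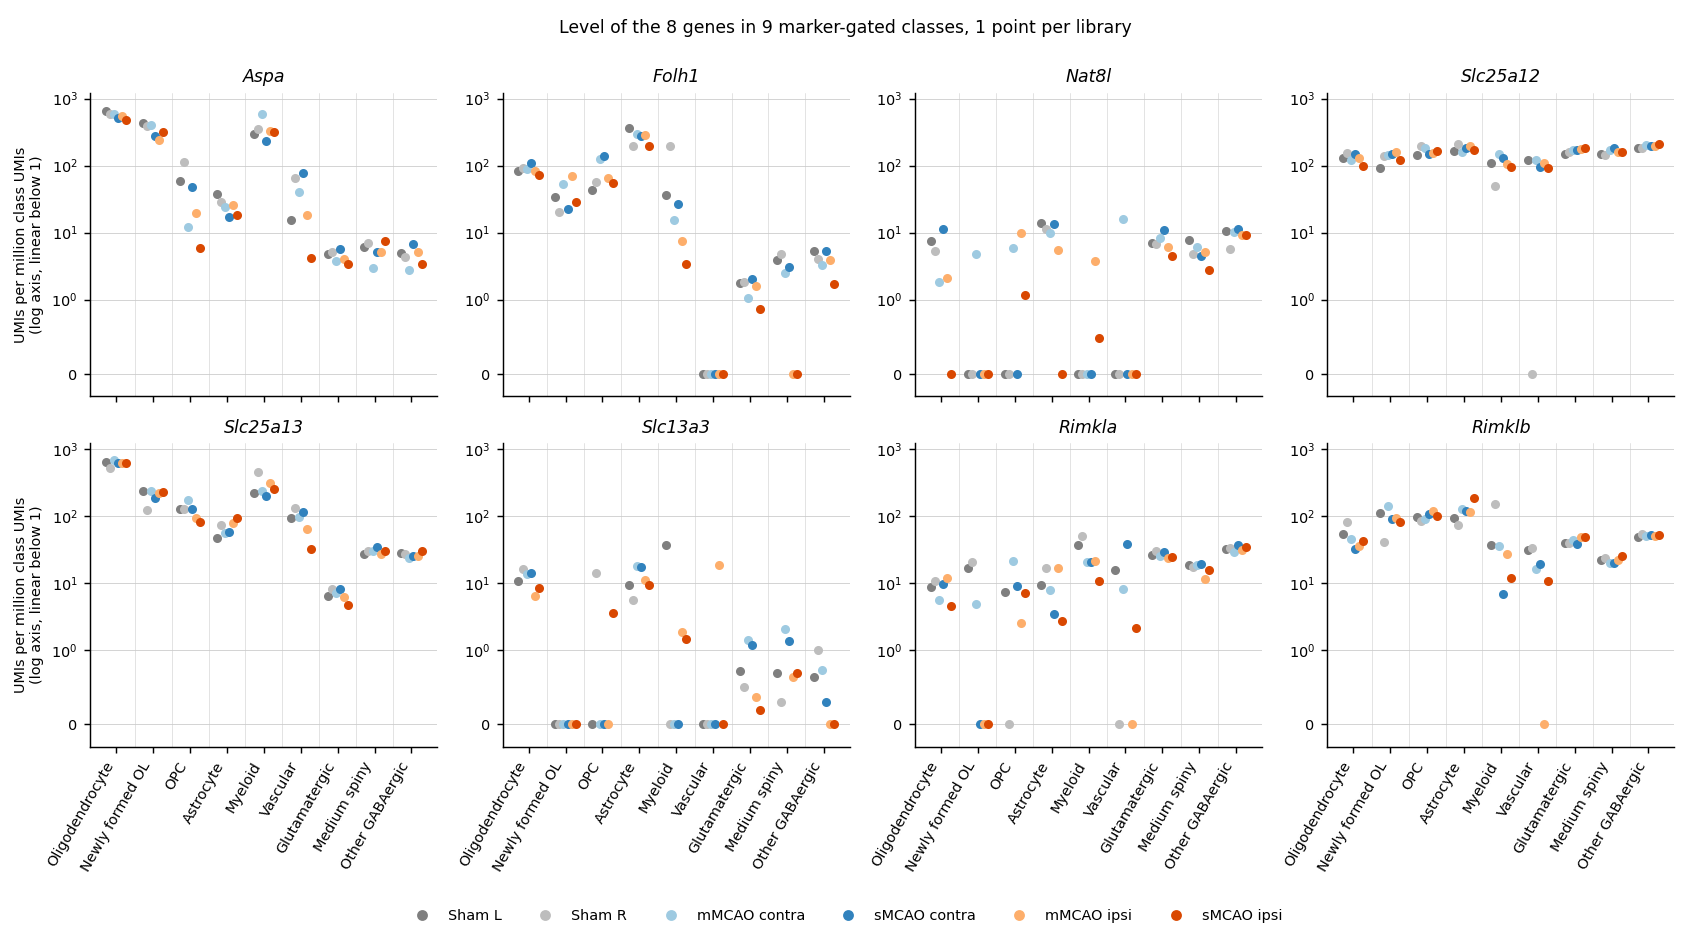
Level of each of the 8 genes in CPM of a class (vertical axis, logarithmic above 1 and linear below) in 9 marker-gated classes, with 1 point per library. *Slc25a13* is highest in oligodendrocyte-like nuclei, as is *Aspa* except in mMCAO contra (myeloid-like 590.3 against 585 CPM), *Folh1* is highest in astrocyte-like nuclei except in Sham R (myeloid-like 198 against 197 CPM, the former from 4 UMIs), and the classes overlap for *Slc25a12*.

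The ischemic hemisphere was first set against Sham and against the other hemisphere of the same rats, class by class, to ask whether the levels moved with infarction. Calls required an edgeR quasi-likelihood adjusted p (Benjamini-Hochberg over all genes of a class) under 0.05 together with a log2 fold change of 0.6 or more in either direction. Of 45 tested pairs of a member and a class, 2 were called in MCAO ipsi vs Sham, both lower, beside 6.8% of all gene and class pairs tested (3.65% lower and 3.16% higher). In MCAO ipsi vs MCAO contra 3 of 45 were called, all lower, beside 3.92% of all (1.98% lower and 1.94% higher). In MCAO contra vs Sham edgeR called 0 of 45, beside 0.121% of all (0.0798% lower and 0.0407% higher), with 5 of 45 at an unadjusted p under 0.05. DESeq2 called 0 in each of these 3 comparisons. The median log2 fold change of the 45 pairs was -0.19, -0.14 and -0.05 in this order, and the medians of all genes ranged from -0.01 to 0.04 over the classes. Comparisons that share a group share its libraries.

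**Figure D2:**
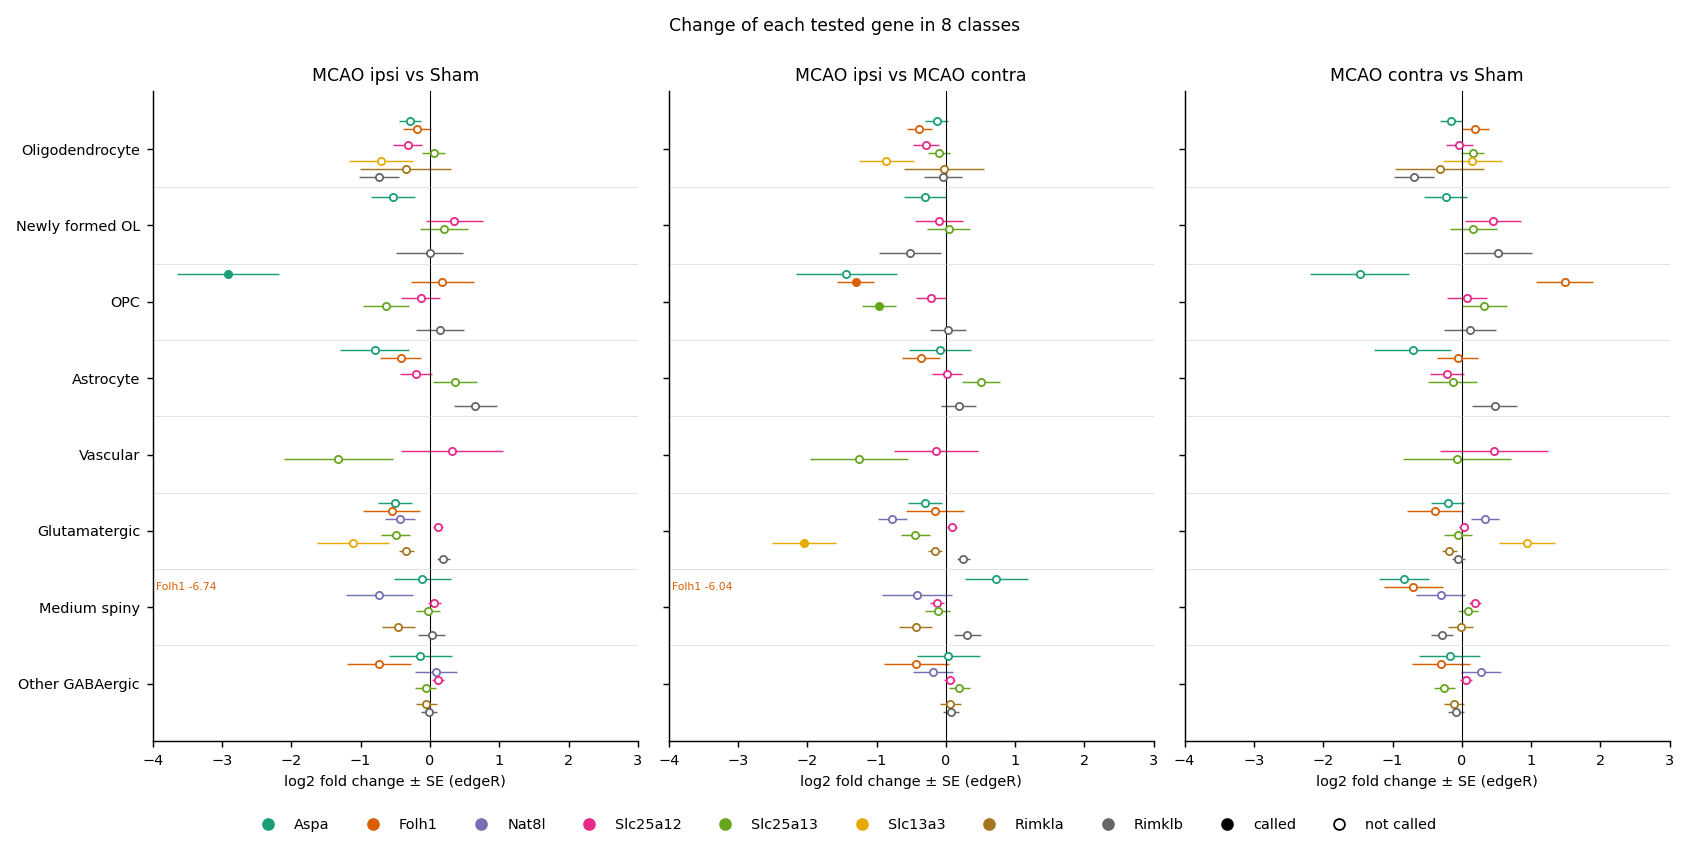
Log2 fold change with its standard error (horizontal axis, edgeR) of each member that passed the filter in 8 classes, in 3 comparisons. Filled points were called, all on the lower side, and *Folh1* in medium spiny neuron-like nuclei is written as a value because it lies outside the axis.

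In oligodendrocyte-like nuclei taken whole, none of the 7 tested members was called in any of the 3 comparisons. *Aspa* gave a mean of 625 ± 46.1 CPM (SD, n = 2) in Sham and of 518 ± 55.5 CPM (n = 2) in MCAO ipsi, and both Sham libraries lay above both ipsi libraries. The log2 fold change was -0.29 (SE 0.16, edgeR adjusted p = 0.326). *Folh1* gave -0.19 (SE 0.20, edgeR adjusted p = 0.637), from 84.3 and 92.6 CPM in Sham and 83.2 and 72.9 CPM in MCAO ipsi. *Slc25a13*, whose groups overlapped, gave 0.06 (SE 0.17, edgeR adjusted p = 0.892). *Rimklb* lay at 52.9 and 82.0 CPM in Sham, at 44.96 and 32.5 CPM in MCAO contra and at 35.2 and 41.8 CPM in MCAO ipsi, every MCAO library below both Sham libraries (log2 fold change ipsi vs Sham -0.74, SE 0.29, edgeR adjusted p = 0.158). In nuclei without any pan-neuronal UMI the fold change was 0.03 (SE 0.41, edgeR adjusted p = 0.997), and without Sham R it was -0.48. Beside these values, 6.36% of all genes tested in this class were called in MCAO ipsi vs Sham.

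Oligodendrocyte-like nuclei were then split by state. The stroke state was gated on *Wdfy1*, *Stat3*, *Sema5b*, *Il6st*, *Pfkfb3*, *Cldn14*, *Adamts1*, *Col12a1* and *Lamc1*, genes that the study chose on these same samples, so the contrast is not independent evidence of a direction, and the study itself discusses the levels of *Aspa*, *Folh1* and *Slc25a13* in this state, none of them a gate gene. The gate found 28 and 4 nuclei in Sham, 42 and 22 in MCAO contra, and 102 and 403 in MCAO ipsi. Of 6 members tested over the 5 libraries with at least 20 such nuclei, *Aspa* was called lower, beside 4.49% of all genes tested. The median log2 fold change was -0.18 over the 6 members and -0.11 over all genes.

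In stroke-state nuclei *Aspa* measured 725 CPM in Sham L, 628 and 616 CPM in MCAO contra, and 278 and 299 CPM in MCAO ipsi. In the oligodendrocyte-like nuclei of neither state it measured 656, 583, 521, 595 and 612 CPM in the same libraries. The low values were thus those of the 2 ipsi libraries, while in the other 3, from 22, 28 and 11 stroke-state UMIs, the ratios to the other nuclei were 1.11 (95% exact interval 0.687 to 1.69), 1.08 (0.712 to 1.57) and 1.18 (0.587 to 2.13), all intervals including 1. Over the 5 libraries the log2 fold change was -0.66 (SE 0.20, edgeR adjusted p = 0.0257). The call was lost without mMCAO ipsi (adjusted p = 0.380) and without sMCAO ipsi (adjusted p = 0.547), with RLE in place of TMM factors, without the library as a block and in DESeq2. Over 11 alternatives the adjusted p ran from 2.17e-07 to 0.547.

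Within the ipsi libraries alone, an alternative chosen after the values were seen, *Aspa* was lower (log2 fold change -1.08, SE 0.14, edgeR adjusted p = 0.000807), beside 6.72% of all genes. Stroke-state over other nuclei gave a ratio of 0.467 (95% exact interval 0.309 to 0.679) in mMCAO ipsi and of 0.489 (0.412 to 0.577) in sMCAO ipsi, intervals that cover counting error only. The difference between the ipsi contrast and that of the other 3 libraries was -0.82 (log2, SE 0.30), which was not called (edgeR unadjusted p = 0.00637, adjusted p = 0.224), beside 1.02% of all genes.

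Shares of nuclei were compared among nuclei with at least 1000 UMIs, each thinned to 1000 UMIs. Of stroke-state nuclei, 29.3% (12 of 41) in mMCAO ipsi and 26.0% (85 of 327) in sMCAO ipsi kept an *Aspa* UMI, against 34.8% (54 of 155) and 40% (194 of 485) of the other oligodendrocyte-like nuclei. Without thinning the shares were 24.5% and 32.5% against 36.1% and 47.5%. Thinning left out 61 and 76 stroke-state and 836 and 355 other nuclei below 1000 UMIs. Both stroke-state shares were the lower ones in their library, but that of mMCAO ipsi rested on 12 nuclei with a UMI, and the differences were not tested. In glutamatergic neuron-like nuclei, a class not known for *Aspa*, 0.264% to 0.590% kept a UMI after thinning, and their median depth was 3248 to 8748 UMIs.

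*Folh1*, whose product releases NAA from NAAG, measured 33.0, 135, 56.0, 47.9 and 43.2 CPM in stroke-state nuclei of the same 5 libraries, against 86.2, 87.9, 110.9, 87.1 and 91.6 CPM in the others. It rested on 1 to 26 stroke-state UMIs per library and was not called over the 5 libraries (log2 fold change -0.88, SE 0.32, edgeR adjusted p = 0.102), though it was in the ipsi libraries alone (-1.06, SE 0.28, edgeR adjusted p = 0.0460). *Slc25a13* was not called. It measured 489 against 627 CPM in mMCAO ipsi (ratio 0.780, 95% exact interval 0.573 to 1.04) and 612 against 661 CPM in sMCAO ipsi (0.926, 0.814 to 1.05), and with a stricter state gate these ratios were 0.664 (0.447 to 0.953) and 0.891 (0.778 to 1.02). The log2 fold change over the 5 libraries was -0.32 (SE 0.19, edgeR adjusted p = 0.486). Pan-neuronal genes measured 152.9 CPM in stroke-state and 425 CPM in other oligodendrocyte-like nuclei of sMCAO ipsi, and 651 against 964 CPM in mMCAO ipsi, and their part in these results was not tested.

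Outside both states, *Aspa* no longer separated the groups, with log2 fold changes of -0.07 (SE 0.15, edgeR adjusted p = 0.859) against Sham and of 0.12 (SE 0.15, edgeR adjusted p = 0.843) against MCAO contra. A second state, gated on the heat shock genes *Hsph1*, *Hspa8*, *Hsp90aa1*, *Dnaja1*, *Dnajb1* and *Hspa4l*, held 111 nuclei in sMCAO ipsi and 1 to 10 in each other library, so it could only be described. There *Aspa* measured 122 CPM from 12 UMIs, a ratio of 0.200 (95% exact interval 0.103 to 0.352) to the 612 CPM of the nuclei of neither state. *Slc25a13* likewise measured 163 against 661 CPM (ratio 0.247, 0.140 to 0.404), while the interval for *Folh1* included 1 (0.557, 0.177 to 1.35). Nuclei that passed both state gates were counted as stroke-state, whereas the nuclei of neither state held none that passed the heat shock gate. The part of this in the stroke-state contrast was not tested.

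**Figure D3:**
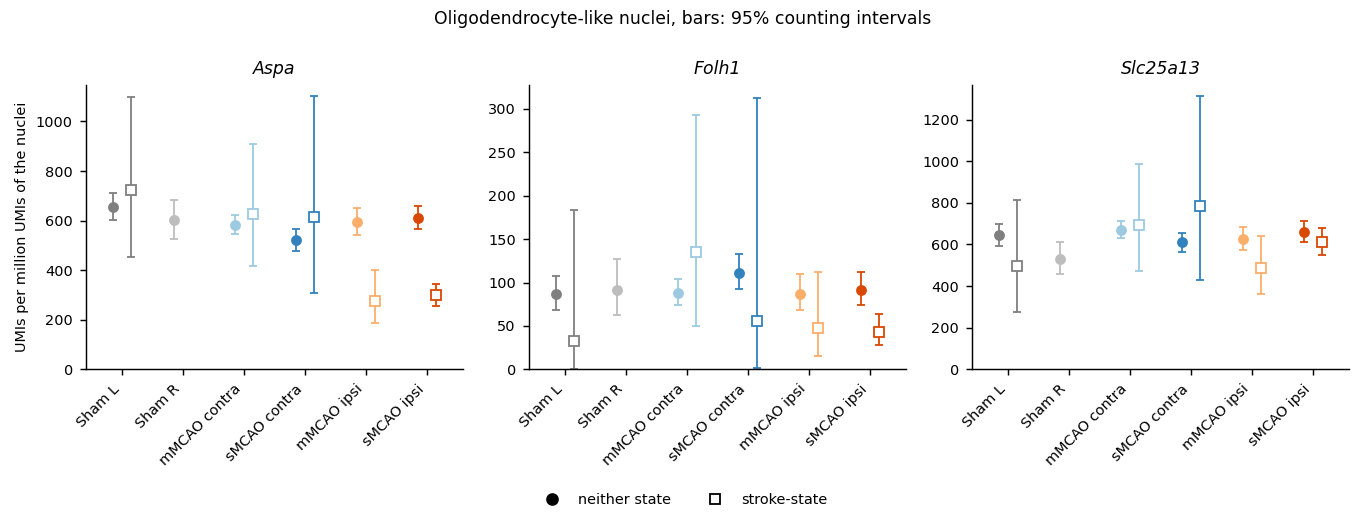
Level in CPM, with 95% exact counting intervals, in oligodendrocyte-like nuclei of the stroke state (open squares) and of neither state (filled circles), by library. *Aspa* in stroke-state nuclei lies at 278 and 299 CPM in the ipsi libraries and at 616 CPM or more in the others shown.

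OPC-like nuclei, the precursors of oligodendrocytes, held 3 of the 5 calls between groups. The study reports proliferating OPCs mainly in infarcted tissue. The gate did not separate them from other OPC-like nuclei, and their part in the results for this class was not tested. *Aspa* measured 58.5 and 112 CPM in Sham, 11.9 and 48.5 CPM in MCAO contra, and 19.9 and 5.89 CPM in MCAO ipsi. The Sham libraries lay above all others, from 4 to 11 UMIs per library. Against Sham the level in MCAO ipsi was lower (log2 fold change -2.91, SE 0.74, edgeR adjusted p = 0.0106), beside 12.7% of all genes called in this class. The call was lost without Sham L, Sham R (adjusted p = 0.197) or sMCAO ipsi (0.0809) and in DESeq2, and over 13 alternatives the adjusted p ran from 0.000209 to 0.197. Summed over the 12 oligodendrocyte markers, OPC-like nuclei held 548 and 379 CPM in the Sham libraries, 245 and 274 in the contra and 241 and 238 in the ipsi libraries, so mature oligodendrocyte RNA was also highest in Sham. The part of this in the *Aspa* result was not tested.

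*Folh1* in OPC-like nuclei measured 43.9 and 56.2 CPM in Sham, 125 and 141 CPM in MCAO contra, and 64.6 and 54.2 CPM in MCAO ipsi. The contra libraries stood above both other groups. Against MCAO contra, MCAO ipsi was lower (log2 fold change -1.30, SE 0.27, edgeR adjusted p = 0.00180), beside 14.2% of all genes called, a call kept in 13 of 14 alternatives and lost in DESeq2 (adjusted p = 0.121). MCAO contra exceeded Sham by 1.48 (log2, SE 0.42), which was not called (edgeR adjusted p = 0.171), and MCAO ipsi differed from Sham by 0.18 (SE 0.46, edgeR adjusted p = 0.876). The Sham values came from 4 and 6 UMIs.

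*Slc25a13* in OPC-like nuclei measured 124 and 126 CPM in Sham, 173 and 128 CPM in MCAO contra, and 94.3 and 80.1 CPM in MCAO ipsi. Both ipsi libraries lay below the other 4. The difference from MCAO contra was -0.96 (log2, SE 0.24, edgeR adjusted p = 0.0103) and that from Sham -0.63 (SE 0.33, edgeR adjusted p = 0.249). The former call was lost without mMCAO contra (adjusted p = 0.309) or sMCAO ipsi (0.0906), without the limit on pan-neuronal UMIs (0.0917) and in DESeq2 (0.287). *Rimklb* and *Slc25a12*, which OPC-like nuclei also held, were not called in any comparison. Pan-neuronal genes in this class measured 2142 and 2219 CPM in Sham, 1520 and 1527 CPM in MCAO contra and 1140 and 831 CPM in MCAO ipsi, and their part in these results was not tested.

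Astrocyte-like nuclei taken whole gave no call among 5 tested members in the 3 comparisons, while 17.8% of all genes tested there were called in MCAO ipsi vs Sham. The levels of *Folh1* given above overlapped between groups, and the Sham libraries differed from each other by more than Sham from MCAO ipsi (log2 fold change -0.42, SE 0.29, edgeR adjusted p = 0.377). *Rimklb* measured 93.1 and 73.3 CPM in Sham, 125 and 119 CPM in MCAO contra, and 113 and 182 CPM in MCAO ipsi. All MCAO libraries lay above Sham, without a call (ipsi vs Sham 0.66, SE 0.31, edgeR adjusted p = 0.178). It was called higher without mMCAO ipsi (0.92, edgeR adjusted p = 0.0186) and without the limit on pan-neuronal UMIs (1.21, edgeR adjusted p = 0.0272). The fold change was 0.29 without sMCAO ipsi and 0.04 in nuclei without any pan-neuronal UMI, both uncalled.

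Reactive astrocyte-like nuclei, gated on genes such as *Cd44*, *Vim*, *Osmr* and *Serpina3n*, numbered 136 in mMCAO ipsi and 306 in sMCAO ipsi, with 0 to 11 in each other library. The study describes several of the gate genes as raised in reactive astrocytes of these same samples. The contrast is therefore not independent evidence of a direction. *Folh1* measured 129.5 CPM (33 UMIs) in reactive and 365 CPM (173 UMIs) in other astrocyte-like nuclei of mMCAO ipsi. In sMCAO ipsi it measured 123 CPM (114 UMIs) in reactive and 313 CPM (174 UMIs) in the others. Both reactive values lay below the level of every whole astrocyte-like library. Over these 2 libraries, the only ones in the fit, the log2 fold change was -1.45 (SE 0.19, edgeR adjusted p = 3.45e-05). It was the only call among 5 members tested, beside 9.95% of all genes. The ratio was 0.355 (95% exact interval 0.237 to 0.517) in mMCAO ipsi and 0.391 (0.306 to 0.498) in sMCAO ipsi. Without the library as a block the adjusted p was 0.0521. Reactive nuclei were deeper than the others (median 1592.5 against 1224 UMIs in mMCAO ipsi and 2698.5 against 1811 in sMCAO ipsi). After thinning, 12.0% and 11.3% of reactive nuclei kept a *Folh1* UMI against 27.9% and 27.3% of the others.

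The other 4 members tested between these astrocyte states were not called. *Slc25a13* measured 102 against 65.5 CPM in mMCAO ipsi and 101 against 77.4 CPM in sMCAO ipsi (log2 fold change 0.44, SE 0.26, edgeR adjusted p = 0.343). *Slc25a12* went the other way, with 141 against 224 and 156 against 202 CPM (-0.53, SE 0.20, edgeR adjusted p = 0.112). *Rimklb* differed by 0.02 (SE 0.21, edgeR adjusted p = 0.977). *Slc13a3* did not pass the filter on low counts, with 1 reactive and 7 other UMIs in mMCAO ipsi (ratio 0.266, 95% exact interval 0.00589 to 2.07) and 2 and 12 UMIs in sMCAO ipsi (0.0996, 0.0108 to 0.447). Without that filter it was called lower (edgeR adjusted p = 0.0210). Outside the reactive state, *Folh1* in MCAO ipsi differed from Sham by 0.12 (SE 0.26, edgeR adjusted p = 0.840).

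**Figure D4:**
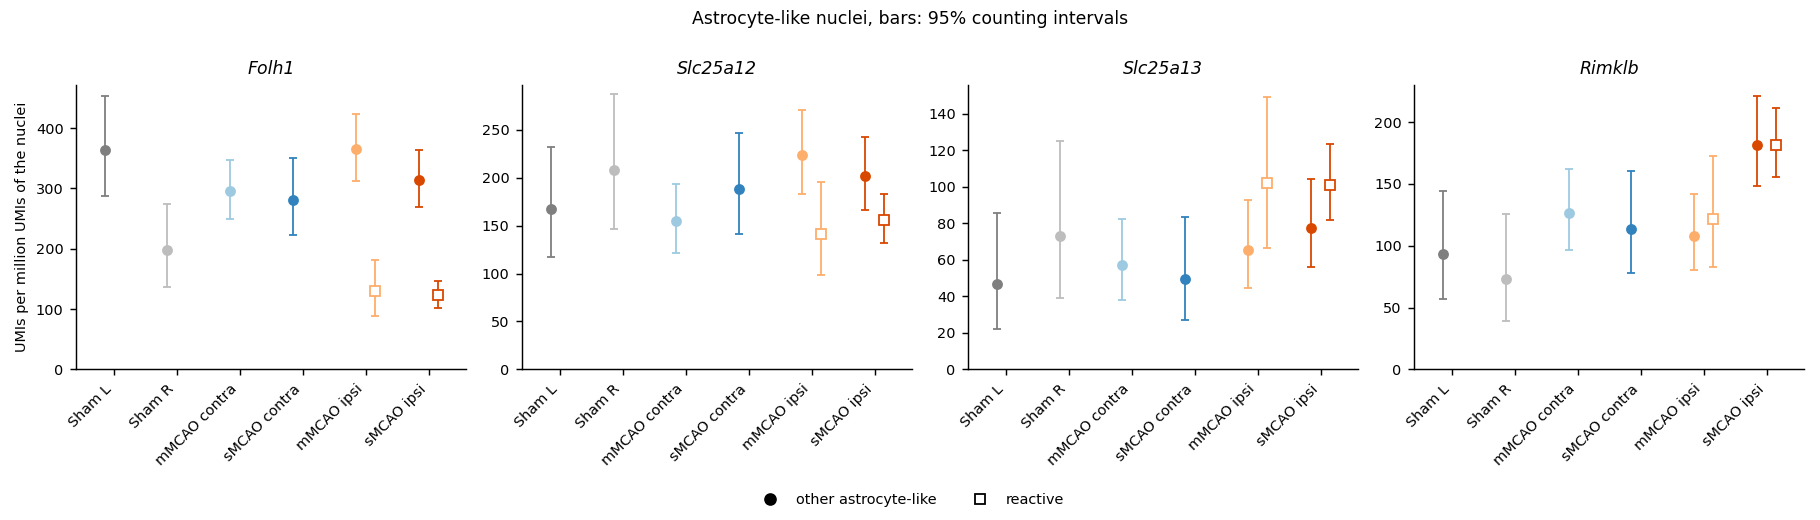
Level in CPM, with 95% exact counting intervals, in reactive (open squares) and other (filled circles) astrocyte-like nuclei of the ipsi libraries. *Folh1* lies at 129.5 and 123 CPM in reactive and at 365 and 313 CPM in other nuclei, with intervals that do not meet.

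In neurons the genes for NAA and NAAG synthesis were followed in glutamatergic neuron-like nuclei, which gave 10332520 to 23350105 UMIs per library. *Nat8l* measured 7.03 and 6.80 CPM in Sham, 8.44 and 10.9 CPM in MCAO contra, and 6.19 and 4.55 CPM in MCAO ipsi. The ipsi libraries were the lowest and the contra libraries the highest. The difference between hemispheres was -0.78 (log2, SE 0.21, edgeR adjusted p = 0.0584), short of a call. With the rat pool as a block it was called (edgeR adjusted p = 0.0475), as it was without a filter on low counts and without mMCAO ipsi. Against Sham it was -0.44 (SE 0.21, edgeR adjusted p = 0.203). Other GABAergic neuron-like nuclei showed no such fall, with 5.64 to 10.4 CPM in Sham, 10.3 to 11.4 in MCAO contra and 9.11 to 9.30 in MCAO ipsi. In medium spiny neuron-like nuclei *Nat8l* held 4.73 to 7.78, 4.44 to 6.13 and 2.75 to 5.09 CPM in the same order.

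*Rimkla* measured 25.9 and 29.9 CPM in Sham, 25.0 and 28.8 in contra and 23.1 and 24.5 CPM in ipsi glutamatergic neuron-like nuclei. Its ipsi values lay below all 4 others, by a log2 fold change of -0.34 against Sham (SE 0.10, edgeR adjusted p = 0.0655) that is under the threshold of size. *Rimklb* went up slightly in value, from 39.0 and 39.1 CPM in Sham to 47.6 and 49.1 CPM in the ipsi libraries (0.20, SE 0.09, edgeR adjusted p = 0.195). *Slc25a12* stood at 149 and 159 CPM in Sham and at 176 and 185 CPM in the ipsi libraries (0.12, SE 0.07, edgeR adjusted p = 0.290). In other GABAergic neuron-like nuclei, where its mean was highest, *Rimkla* did not fall, with 32.5 to 33.2 CPM in Sham and 31.3 to 34.4 CPM in MCAO ipsi. In medium spiny neuron-like nuclei it held 17.4 to 18.5 CPM in Sham and 11.4 to 15.8 CPM in MCAO ipsi, without a call.

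The calls in neurons concerned genes with few UMIs. *Slc13a3* in glutamatergic neuron-like nuclei gave 14 and 7 UMIs in Sham, 33 and 16 in MCAO contra, and 8 and 2 in MCAO ipsi. In CPM these are 0.713, 0.506, 1.41, 1.17, 0.364 and 0.194, with the contra libraries highest. MCAO ipsi was lower than MCAO contra (log2 fold change -2.05, SE 0.46, edgeR adjusted p = 0.0336), beside 3.64% of all genes called, and this call held in 8 of 15 alternatives. It was lost without Sham L (0.0926), Sham R (0.0854), mMCAO contra (0.252) or sMCAO contra (0.158), and the adjusted p ran from 0.00207 to 0.252. Against Sham it was not called (-1.11, SE 0.52, edgeR adjusted p = 0.181).

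*Folh1* in medium spiny neuron-like nuclei gave 17 and 16 UMIs in Sham, 11 and 9 in the contra libraries and 0 in both ipsi libraries. With 3 counts over the 3028256 UMIs of the ipsi group as the limit that a count of 0 allows, the observed level was at least 4.30-fold higher in Sham and at least 2.75-fold higher in MCAO contra than in MCAO ipsi. These bounds leave out the counting error of the 33 Sham and 20 contra UMIs, which would lower them. The test called the difference from Sham (edgeR adjusted p = 0.0103), beside 5.8% of all genes tested, but not that from MCAO contra (edgeR adjusted p = 0.0629). The former call was lost without Sham L (0.0549) or Sham R (0.0541). In the other neuronal classes *Folh1* was present in the ipsi libraries, at 5 to 35 UMIs each. These medium spiny neuron-like nuclei numbered 1314 and 1481 in Sham but 476 and 231 in the ipsi libraries.

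Myeloid-like nuclei carried *Aspa* and *Slc25a13* at levels that overlapped those of newly formed oligodendrocyte-like nuclei. There were 14 and 18 such nuclei in Sham, 190 and 127 in the contra and 884 and 1531 in the ipsi libraries, too few in Sham for a test. *Aspa* measured 291 and 346 CPM in Sham, 590.3 and 229 CPM in MCAO contra, and 324 and 318 CPM in MCAO ipsi, from 7 to 650 UMIs. The ipsi values were close to each other and the contra values were not, with a ratio of 0.389 (95% exact interval 0.257 to 0.574) of sMCAO contra to mMCAO contra. In sMCAO ipsi 39.3% of the *Aspa* UMIs of all gated nuclei came from myeloid-like and 51.2% from oligodendrocyte-like nuclei, while in Sham L these were 0.963% and 73.3%.

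Oligodendrocyte RNA in these nuclei was measured beside it. The 12 oligodendrocyte markers summed to 324 CPM in mMCAO ipsi and 219 CPM in sMCAO ipsi myeloid-like nuclei, with none of the 12 at 0 there, against 10011 and 10956 CPM in oligodendrocyte-like nuclei. Per 100 UMIs of these markers, *Aspa* gave 100 and 145 UMIs in myeloid-like, 5.56 and 4.37 in oligodendrocyte-like and 6.75 and 6.07 in glutamatergic neuron-like nuclei of the ipsi libraries. In the 690 and 1205 myeloid-like nuclei of these libraries without a single UMI of any of the 12 markers, *Aspa* was as high as in the whole class, with 324 CPM (95% exact interval 284 to 369) and 321 CPM (293 to 351). These nuclei were 78.1% and 78.7% of the class, at median depths of 760.5 and 1067 UMIs. At such depth a lack of marker UMIs does not show a lack of oligodendrocyte RNA. The 12 markers also set the oligodendrocyte gate, and nuclei of both classes were left out, so the gates shape the ratios per marker UMI. The part of oligodendrocyte RNA in these levels was not tested.

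*Slc25a13* was likewise present in these nuclei, with 311 and 252 CPM in the ipsi libraries and 305 and 251 CPM in those without a marker UMI. *Folh1* lay at 7.45 and 3.42 CPM in the same myeloid-like nuclei, against 83.2 and 72.9 CPM in oligodendrocyte-like nuclei. After thinning, 25.2% and 26.8% of the ipsi myeloid-like nuclei kept an *Aspa* UMI, at median depths of 804.5 and 1085 UMIs before it.

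**Figure D5:**
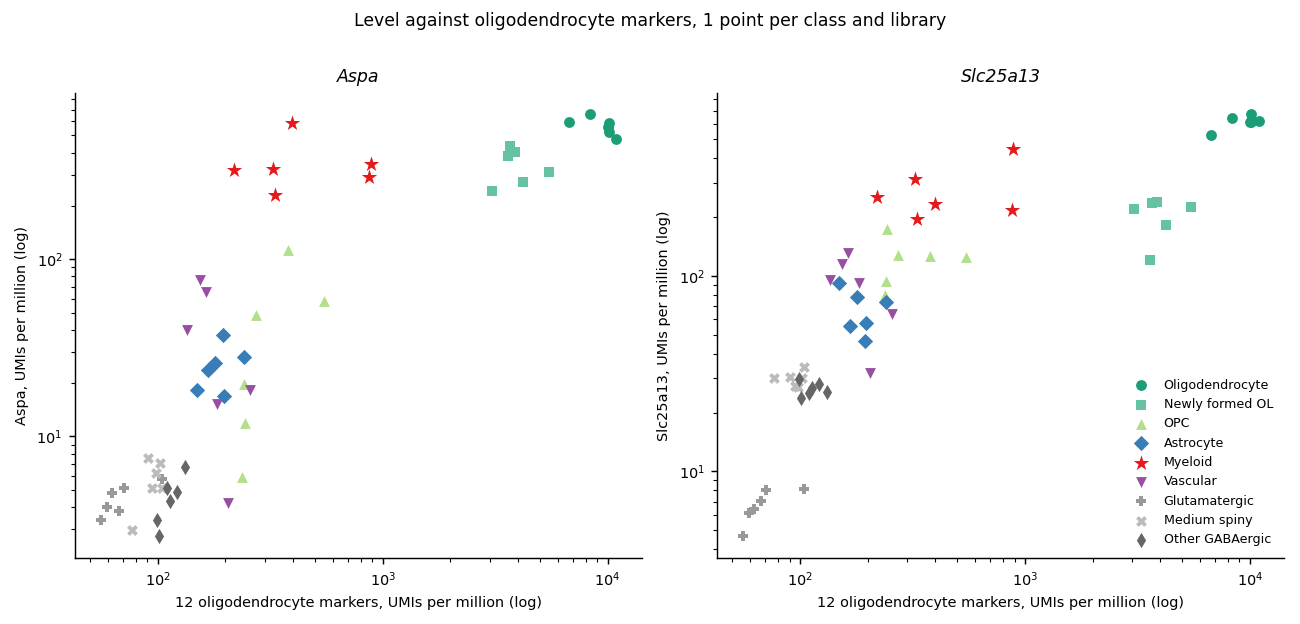
Level of a member (vertical axis, CPM, logarithmic) against the summed level of 12 oligodendrocyte markers (horizontal axis, CPM, logarithmic), 1 point per class and library. Myeloid-like nuclei lie at 229 to 590.3 CPM of *Aspa* with 219 to 890.3 CPM of the markers, above astrocyte-like and neuronal nuclei with similar or lower marker levels.

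Moderate and severe infarcts were compared between single libraries, so only ratios with 95% exact counting intervals can be given and no test. Of 57 member and class pairs, 6 had an interval without 1 for sMCAO ipsi over mMCAO ipsi, or 10.5%. The same share was 16.7% for sMCAO contra over mMCAO contra and 8.62% for the Sham hemispheres of the same rats. For ipsi over contra it was 32.8% (19 of 58 pairs) in the severe and 9.84% (6 of 61) in the moderate libraries. The difference between these shares was not tested. In oligodendrocyte-like nuclei *Aspa* was lower in sMCAO ipsi than in mMCAO ipsi (ratio 0.859, 0.770 to 0.960), and in the contra libraries the ratio was 0.891 (0.803 to 0.988). *Folh1* in astrocyte-like nuclei gave 0.685 (0.571 to 0.824) between the ipsi libraries, beside 0.543 (0.354 to 0.819) between Sham R and Sham L. *Rimklb* in astrocyte-like nuclei gave 1.61 (1.26 to 2.09) between the ipsi libraries.

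The other genes of the pathway were followed as a list of 36 by role. Over the 8 classes, 11 of 168 tested pairs were called in MCAO ipsi vs Sham (3 higher and 8 lower), 7 of 168 in MCAO ipsi vs MCAO contra (2 higher and 5 lower) and 2 of 168 in MCAO contra vs Sham (both lower), with median log2 fold changes of -0.04, -0.07 and -0.01. The background shares over all genes are those given above for the members.

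*Naaladl2* and *Grm3* were called in OPC-like nuclei. *Naaladl2*, a relative of *Folh1*, measured 453 and 449 CPM in Sham, 463 and 353 in contra and 189 and 87.2 CPM in ipsi OPC-like nuclei, and fell against Sham by 1.90 on the log2 scale (SE 0.30, edgeR adjusted p = 0.000153). *Grm3* encodes mGluR3, the glutamate receptor at which NAAG acts. It measured 365 and 323 CPM in Sham, 105 and 115 in contra and 81.9 and 34.2 CPM in ipsi OPC-like nuclei, and was called lower in all 3 comparisons. Oligodendrocyte markers and pan-neuronal genes in OPC-like nuclei were also highest in Sham, as given above. Their part in the results for *Naaladl2* and *Grm3* was not tested. In stroke-state oligodendrocyte-like nuclei *Grm3* was lower (log2 fold change -1.01, SE 0.15, edgeR adjusted p = 1.32e-08) and the glutamate and aspartate transporter gene *Slc1a1* higher (1.24, SE 0.29, edgeR adjusted p = 0.00117). These were the 2 calls among 26 list genes tested there, beside 4.49% of all genes.

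In astrocyte-like nuclei 2 list genes were called higher and 3 lower in MCAO ipsi vs Sham, of 24 tested, beside 17.8% of all genes called there. Among the lower ones, *Got1*, the cytosolic aspartate aminotransferase, measured 74.5 and 118 CPM in Sham and 34.3 and 37.0 CPM in the ipsi libraries (log2 fold change -1.58, SE 0.38, edgeR adjusted p = 0.0147). *Acss2*, which turns free acetate into acetyl-CoA, fell from 172 and 141 CPM to 96.1 and 80.8 CPM (-1.01, SE 0.25, edgeR adjusted p = 0.0148). The genes called higher were *Aspg*, an asparaginase, from 0 and 16.9 CPM to 65.9 and 148 CPM (3.63, SE 0.82, edgeR adjusted p = 0.0110), and *Adss*, the adenylosuccinate synthase that uses aspartate for purines (1.32, SE 0.34, edgeR adjusted p = 0.0196). Astrocyte-like sums in Sham were 214745 and 177438 UMIs, so the Sham level and the fold size of *Aspg* rest on very few UMIs.

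In reactive against other astrocyte-like nuclei, *Aspg* (0.97), *Adss* (1.24) and *Slc1a1* (1.20) were called higher in log2 fold change. *Slc25a18* (-1.72), a mitochondrial glutamate carrier, *Slc1a2* (-0.76), the main glutamate transporter of astrocytes, and *Naaladl2* (-0.68) were called lower. These were 3 higher and 3 lower of 27 list genes tested, beside 9.95% of all genes. *Acly*, which makes acetyl-CoA from citrate, was called higher in ipsi than in Sham OPC-like nuclei (1.70, SE 0.51, edgeR adjusted p = 0.0288). *Slc1a2* was called lower against Sham in oligodendrocyte-like (-3.73), glutamatergic (-1.15) and medium spiny neuron-like nuclei (-1.77), where its levels of 230.2 CPM or less were small beside the 3190 to 6307 CPM in astrocyte-like nuclei.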

How the data were processed

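Nuclei of 6 libraries (10x Genomics 5′ kit) were analysed. Per the labels, the authors aligned reads with Cell Ranger 7.0.0 to mRatBN7.2 and, per their methods, counted intronic reads, and they deposited raw UMI counts per gene and nucleus. From these counts, nuclei with at least 500 UMIs, 250 to 5000 genes and up to 5% mitochondrial UMIs were kept and gated into classes by marker UMIs per 10000, with at most 40 pan-neuronal UMIs per 10000 in glia. Gate limits were set after the data were seen. Nuclei of more than 1 class were left out, and no doublet caller and no correction for ambient RNA were run. Some gated classes have low median depth (for example 707.5 UMIs in mMCAO contra myeloid-like nuclei, with 3360 over that library). A barcode was shared between pairs of libraries in about 2% of nuclei.

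UMIs were summed per class and library. Classes with at least 20 nuclei in every library were tested with edgeR 4.0.16 (quasi-likelihood, TMM, filterByExpr, Benjamini-Hochberg per class), all 6 libraries in one fit, and DESeq2 1.42.0 as an alternative in R 4.3.3. States were compared with the library as a block. The contra and ipsi libraries of a severity are the same rats by the study's methods. Deviations of these pairs from the group means correlated at -0.222 in oligodendrocyte-like to 0.143 in glutamatergic neuron-like nuclei. Single libraries were compared by exact conditional ratio intervals, which cover counting error only. The tests were tried on simulated counts of MCAO ipsi vs Sham. Of true 2-fold changes they found 30% (oligodendrocyte-like), 27% (newly formed), 26% (astrocyte-like), 22% (OPC-like) and 12% (vascular-like). The neuronal classes gave 58% to 71%. Of 4-fold changes, 63% (vascular-like) to 96% (other GABAergic) were found. Most 2-fold changes were thus missed in glia, so a gene left uncalled there was not shown to be unchanged. The members, lists and tests were chosen with earlier results of these data known. Named were the 8 members, the list genes called in a comparison used here and the 3 genes most like each member. 1 called gene of the list is not reported here. *Slc17a5* of the list has no row in the gene tables used here. Promoters are from RefSeq (GRCr8), another build than that of the counts, and no coordinates of the counts were used.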

Additional observations from a re-analysis of the deposited data

How the results depend on the processing

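No called fold change changed sign in the alternatives run. Of the uncalled ones in oligodendrocyte-like nuclei (MCAO ipsi vs Sham), *Rimklb* came to 0.03 in glia without any pan-neuronal UMI, *Folh1* to 0.03 with the stricter gate and 0.02 outside the states, and *Slc25a13* to -0.10 without Sham R and -0.08 in glia without any pan-neuronal UMI. Of 248 fold changes recomputed for named pairs, 214 kept their side of the threshold, 25 lost it and 9 gained it. The number of called member and class pairs in MCAO ipsi vs Sham (2) was 0 with DESeq2, and 1 each with only the 2 groups fitted, with the stricter gate (5 classes and 34 pairs left) and in glia without any pan-neuronal UMI. Leaving out 1 library gave 0 to 7, with 0 without Sham L or Sham R, 1 without sMCAO ipsi and 7 without mMCAO ipsi. In MCAO ipsi vs MCAO contra (3) it was 0 with DESeq2 and with the stricter gate, 5 without a filter on low counts and 1 in glia without any pan-neuronal UMI, and leaving out 1 library gave 1 (without mMCAO contra) to 7 (without mMCAO ipsi). With the rat pool as a replicate block, the pairing of contra and ipsi, it was 4, the addition being *Nat8l* in glutamatergic neuron-like nuclei. In MCAO contra vs Sham (0), leaving out 1 library gave 0 to 1, the 1 being *Folh1* in OPC-like nuclei without sMCAO ipsi. In stroke-state oligodendrocyte-like nuclei (1) it was 0 with DESeq2, 0 with RLE factors, 0 with no replicate block, 2 with the stricter state gate and 2 in the ipsi libraries alone, and leaving out 1 library gave 0 (without either ipsi library) to 2 (without mMCAO contra). In reactive astrocyte-like nuclei (1) it was 2 without a filter, the addition being *Slc13a3*, and 0 with no replicate block, and no library could be left out since 1 alone leaves no residual degrees of freedom. The causes were not tested, except that the stricter gate leaves fewer classes and the restricted fits fewer samples. The stricter gate and the fit of glia without pan-neuronal UMIs left OPC-like nuclei untested. The fits of glia without pan-neuronal UMIs, without the limit on these, outside the states, of the ipsi libraries alone, with the interaction and with library totals in place of TMM were chosen after seeing the data. Library totals put the median of all genes at 0.24 (log2, MCAO ipsi vs Sham) in astrocyte-like, 0.14 in OPC-like and 0.12 in glutamatergic neuron-like nuclei, with the same 2 and 3 pairs called. Where a lone library of a group was left, it was assumed to vary like the others. Depth limits *Nat8l*, *Slc13a3* and *Rimkla* in glia, where most libraries held fewer than 20 UMIs.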

Other observations

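The genes whose levels followed each member most closely were found over the 57 sums of a class in a library, among 7719 genes with a mean of at least 20 CPM. The values are Pearson correlations of log2(CPM + 5) over sums that share libraries and cell types, given as a description. For *Aspa* they were *Rnf13* (0.91), *Baz2b* (0.90) and *Zfp638* (0.88), and for *Slc25a13* *Tcf12* (0.89), *Qk* (0.88) and *Erbin* (0.88). For *Folh1* they were *Col27a1* (0.83), *Rftn2* (0.83) and *Shisa4* (0.82). For *Slc25a12* they were *Ptprs* (0.83), *Hacd3* (0.82) and *Snrnp27* (0.81), for *Rimkla* *Sez6l2* (0.81) and *Marchf11* (0.79), and for *Rimklb* *Mtss2* (0.83) and *Nckap5* (0.75), the other gene of each of these members being listed by an identifier alone. The sparse members had lower values, with *Syndig1*, *Pgbd5* and *Clmp* at 0.61 for *Nat8l*, and *Fam163a* (0.68), *Ptgds* (0.67) and *Notch2* (0.63) for *Slc13a3*. None of these genes is a marker used for the classes.

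*Trpv3*, which overlaps *Aspa* in the annotation, measured 12.96 and 23.8 CPM in Sham (L and R), 17.6 and 26.4 CPM in MCAO contra (moderate and severe) and 49.1 and 63.9 CPM in MCAO ipsi oligodendrocyte-like nuclei. Its ipsi values were the highest, which those of *Aspa* were not.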
